A study of Mus musculus with 2 samples.

Results

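The smooth muscle contractile apparatus was followed through 35 genes, chosen by name from the 32285 genes counted in 2 single-cell libraries of mouse aorta. They encode the actins, myosins and actin regulators of the contractile filaments, the dense bodies that anchor them, the myosin phosphatase, the channels that set calcium entry and the transcription factors that switch the set on. The clustering of cells and the marker lists that named the clusters used none of these genes, except that 1 cluster was refused a cell type name because contractile genes led it. Both libraries came from ApoE-/-/C57BL/6 mice, which lack apolipoprotein E, on a Western diet, a model of atherosclerosis. The WT library carried no further deletion, and the EC-iCD45KO library came from mice with a tamoxifen-inducible deletion of CD45, the leukocyte phosphatase encoded by Ptprc, in endothelial cells (EC). The aortic wall was broken down with collagenases and Liberase, and beads against CD31, a protein on the surface of endothelial cells, enriched the suspension that went into the 10x Genomics droplets. The series asks about endothelial-to-mesenchymal transition, in which endothelial cells take up mesenchymal genes, of which Acta2 and Tagln are common readouts. The number, age and sex of the mice, any pooling and the Cre line were not given in the sources used here.

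Smooth muscle cells shorten when calcium and calmodulin activate the myosin light chain kinase, which phosphorylates the regulatory light chain and lets myosin pull on actin. Myosin phosphatase reverses this step. Serum response factor (Srf) and its cofactor myocardin (Myocd) bind CArG boxes near the genes of the apparatus, and in atherosclerosis smooth muscle cells can lose these genes while gaining matrix and inflammatory ones, a state called modulated.

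The CArG box was searched on both strands from 250 bases before to 50 after the annotated start, in RefSeq promoters of GRCm38.p6. A promoter was found for 30 of the 35 genes, and those of Actg2, Myh11, Myocd, Tagln and Csrp2 were not used here. The stretches below are shown because they are the 5 promoters with a perfect box, in capitals, and they place the binding motif of Srf in the same gene set whose levels follow. The box was present in 5 of 30 promoters (16.7%), against 488 of 27025 promoters (1.81%) of all genes in the table. A match is a sequence description only and no binding was measured, and no match says only that these letters are not in this window.
Srf, chr17:46556175-46556284, minus strand, 2 boxes: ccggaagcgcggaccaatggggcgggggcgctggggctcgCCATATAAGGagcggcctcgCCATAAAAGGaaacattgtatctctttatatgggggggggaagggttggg
Vcl, chr14:20929148-20929220, plus strand: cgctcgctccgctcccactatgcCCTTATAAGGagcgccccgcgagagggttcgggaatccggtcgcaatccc
Myl9, chr2:156775263-156775352, plus strand: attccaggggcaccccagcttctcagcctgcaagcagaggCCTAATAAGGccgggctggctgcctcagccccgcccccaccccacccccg
Myl6, chr10:128493010-128493099, minus strand: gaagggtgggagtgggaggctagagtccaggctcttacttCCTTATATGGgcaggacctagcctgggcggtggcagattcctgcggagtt
Ldb3, chr14:34588682-34588756, minus strand: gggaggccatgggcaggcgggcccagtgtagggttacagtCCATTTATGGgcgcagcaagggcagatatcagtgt

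Each group had 1 library, so no difference below has a replicate check, no test was possible, and the condition cannot be told apart from the preparation. The WT library held 39849 barcodes and the EC-iCD45KO library 30278, with a median of 1548 and 1405 UMIs (unique molecular identifiers, 1 per captured RNA molecule). The 2 libraries shared 340 barcodes. After filtering, 35553 and 26064 cells were analysed, of which 35.5% and 22.9% lay in clusters left unnamed. Levels are CPM, the UMIs of a gene summed over the cells of a class per 1000000 UMIs of those cells. A gene counted as higher or lower when the libraries differed by at least 1.5-fold at a mean of at least 5 CPM. Intervals are 95% and cover counting error only. The targeted gene, Ptprc, stood at 268 CPM in WT and 112 CPM in EC-iCD45KO in EC-like cells, and it was also lower outside the endothelium, at 406 and 186 CPM in SMC-like (smooth muscle) cells and at 492 and 269 CPM in macrophage-like cells. The beads select endothelial cells, so shares of muscle cells in these libraries do not describe the aortic wall.

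Muscle cells fell into 2 clusters with different contractile levels. The SMC-like cluster held 1269 WT and 2668 EC-iCD45KO cells, with a median of 1172 and 1225.5 UMIs. The other was led by Vcam1, an adhesion molecule, and Itga8, an integrin chain of smooth muscle, and held 705 and 907 cells with a median of 7621 and 8437 UMIs. Its markers pointed to modulated muscle, but contractile genes led it, so it kept no cell type name and is called the Vcam1 and Itga8 cluster. One of the 5 smooth muscle markers, S100g, had 0 UMIs in WT SMC-like cells and stood at 67.3 CPM in EC-iCD45KO, which limits it as a marker here. A cluster of 154 and 122 pericyte-like cells, the mural cells of small vessels, was the third with high contractile levels.

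**Figure D1:**
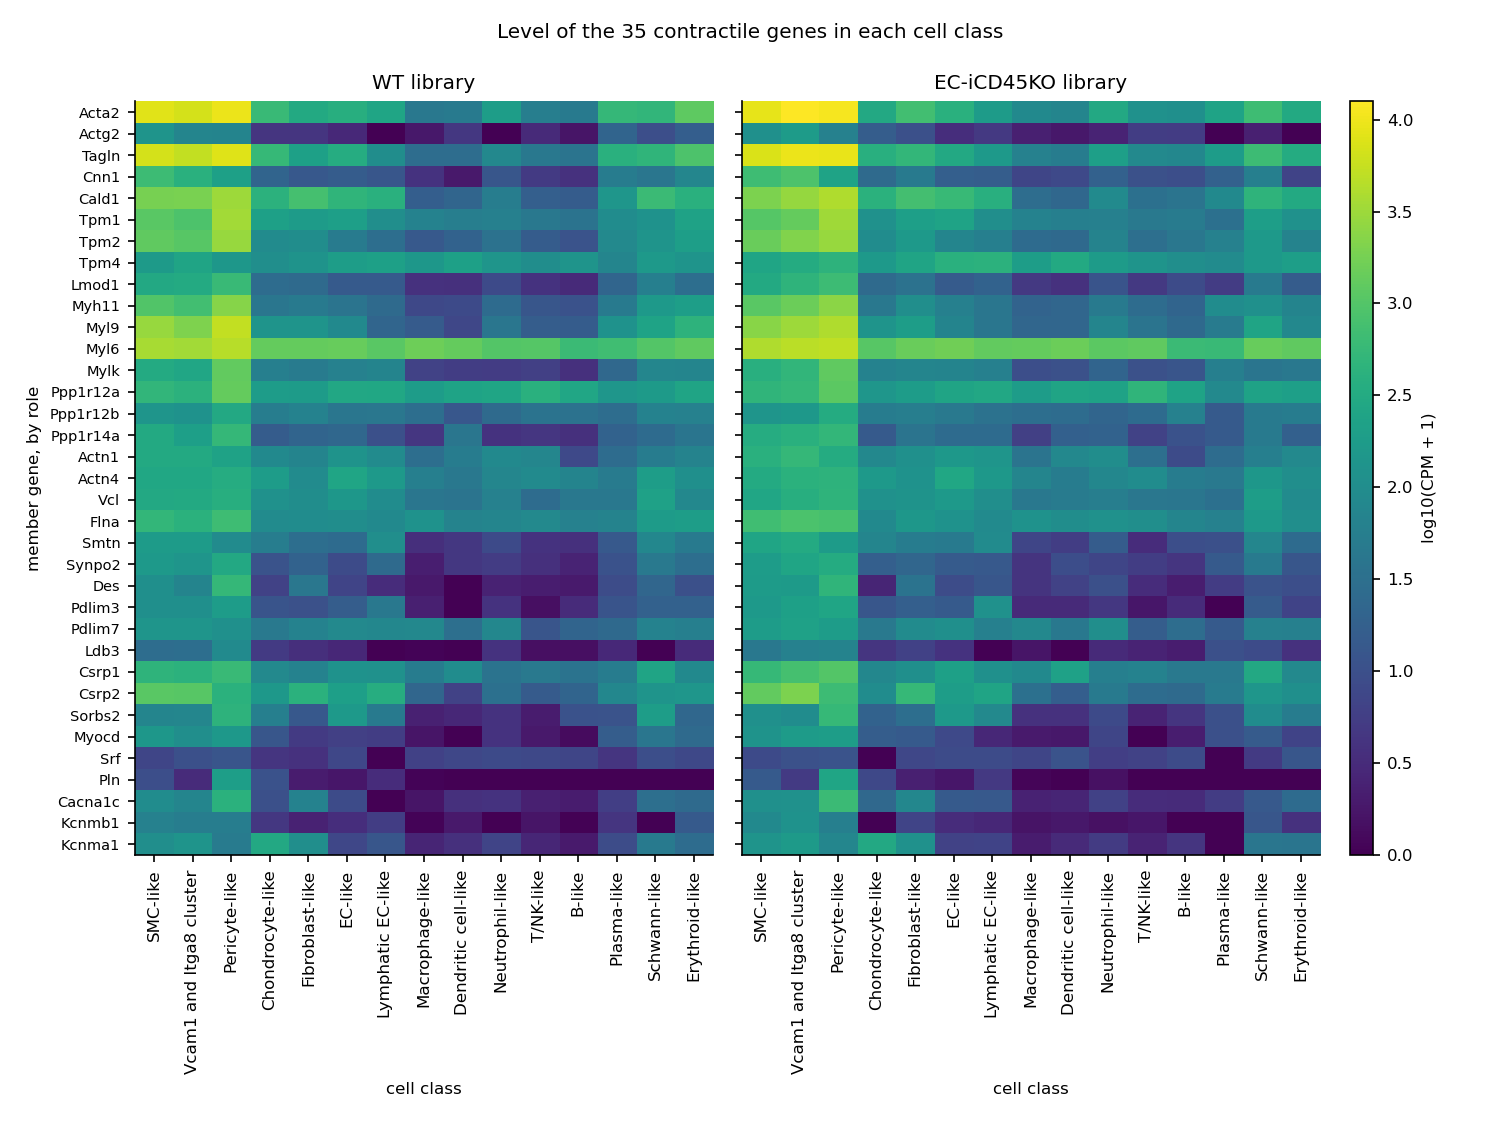
Level of each of the 35 genes as log10(CPM + 1), by colour, in 15 cell classes of the WT library (left) and the EC-iCD45KO library (right), with genes ordered by role. The 3 columns at the left of each panel, SMC-like, the Vcam1 and Itga8 cluster and pericyte-like, are the brightest for Acta2, Tagln and Myh11, while Tpm4, Myl6 and Ppp1r12a are bright in nearly every column.

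Contractile RNA made up 3.35% of the UMIs of SMC-like cells in WT and 3.59% in EC-iCD45KO, 4.88% and 5.35% in pericyte-like cells, and 2.83% and 4.79% in the Vcam1 and Itga8 cluster. In the EC-like class the share was 0.487% and 0.566%, and in B-like cells 0.151% and 0.173%. Pericyte-like cells had the highest level of 26 of the 35 genes in WT and of 23 in EC-iCD45KO. The Vcam1 and Itga8 cluster had the highest level of 2 genes in WT and of 10 in EC-iCD45KO, Acta2 and Cnn1 among these 10.

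The mural classes used different proportions of the set. Pln, the phospholamban that restrains calcium uptake into the sarcoplasmic reticulum, stood in pericyte-like cells at 198 CPM in WT and 252 CPM in EC-iCD45KO, against 8.76 and 13.6 CPM in SMC-like cells. Cnn1, calponin, which binds actin and dampens the myosin motor, ran the other way, at 211 and 237 CPM in pericyte-like and 648 and 661 CPM in SMC-like cells. Cacna1c, the pore of the L-type calcium channel, was at 412 and 615 CPM in pericyte-like and 97.9 and 112 CPM in SMC-like cells. Both libraries gave the same order of the 2 classes for these 3 genes. Kcnma1, the pore of the large-conductance potassium channel, was highest outside the mural cells, at 295 and 292 CPM in chondrocyte-like cells, whereas Kcnmb1, its smooth muscle beta subunit, stood there at 3.69 CPM in WT and 0 UMIs in EC-iCD45KO.

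In SMC-like cells most of the apparatus lay close between the libraries. All 35 genes passed the minimum, and 5 were higher in EC-iCD45KO, against 10.8% of the 11059 genes tested, and 0 were lower, against 14.8%. The median log2 ratio of EC-iCD45KO over WT was 0.19 for the 35 genes and −0.03 for all genes tested. The 5 higher genes were Des, Ldb3 and Sorbs2 of the dense bodies and attachment, Pln of calcium handling and the tropomyosin gene Tpm4. In the same cells the 9 macrophage markers summed to 3478 CPM in WT and 8802 CPM in EC-iCD45KO, with 9 of 9 at a CPM above that in WT and none at 0. Such counts of markers take any difference, with no fold limit. B cell markers summed to 1061 and 79.6 CPM. The part of these other cell types in the contractile values was not tested.

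Among the thin filament genes, Acta2, the smooth muscle alpha actin, stood at 8255 CPM in WT and 8733 CPM in EC-iCD45KO (log2 ratio 0.08, interval 0.05 to 0.11). Tagln, transgelin, an actin cross-linker used as an early muscle marker, was at 6736 and 7452 CPM (0.15, 0.12 to 0.17). Cnn1 gave 0.03 (−0.07 to 0.12), and its interval included 0. Tpm4, the tropomyosin of non-muscle actin, was the one thin filament gene past 1.5-fold, at 171 and 258 CPM (0.59, 0.42 to 0.77), while Tpm1 and Tpm2, the muscle tropomyosins, gave −0.09 and 0.19. Actg2, the gamma actin of visceral muscle and a paralog of Acta2, was at 131 and 113 CPM (−0.21, −0.43 to 0.01). How reads that match both genes were counted was not examined.

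The myosin genes did not move as 1 unit. Myh11, the smooth muscle heavy chain, stood at 967 CPM in WT and 1126 CPM in EC-iCD45KO (0.22, 0.14 to 0.30). Mylk, the light chain kinase, gave 0.30 (0.16 to 0.43). Myl9, the regulatory light chain it phosphorylates, was at 2913 and 2327 CPM (−0.32, −0.37 to −0.28), the lowest ratio of the 35, though not past 1.5-fold. Myl9 stood at 5286 and 4110 CPM in pericyte-like cells and at 85.7 and 69.6 CPM in EC-like cells, also within 1.5-fold. Of the myosin phosphatase genes, Ppp1r12a, its targeting subunit, was at 508 and 475 CPM (−0.10), while Ppp1r12b, a second targeting subunit, gave 0.03 and Ppp1r14a, an inhibitor of the enzyme, 0.14.

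The dense body and attachment genes had a median of 0.42 in SMC-like cells over 13 genes, with 12 of 13 intervals above 0, against 15.8% of those of all genes, and the 4 calcium and potassium handling genes one of 0.39. The 9 thin filament genes had a median of 0.08. Des, desmin, the intermediate filament of muscle, was at 108 CPM in WT and 176 CPM in EC-iCD45KO (0.71, 0.49 to 0.93). Sorbs2, an adaptor at actin anchoring sites, was at 73.6 and 114 CPM (0.62, 0.36 to 0.90), and Ldb3, a Z-line protein of striated muscle, at 27.8 and 43.5 CPM (0.64, 0.21 to 1.10). Pdlim3, an actinin-binding protein, was at 109 and 161 CPM (0.57, 0.35 to 0.80) and lay just inside 1.5-fold. Vcl, vinculin, was the exception, at 297 and 268 CPM (−0.15, −0.29 to −0.00). In a list of 14 other adhesion and cytoskeleton genes, 2 were higher, Itga5, a fibronectin receptor chain, at 89.6 and 143 CPM, and Sgca at 7.21 and 11.7 CPM, and the median was 0.36. This share lay near the 10.8% of all genes.

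Neither transcription factor stood apart. Myocd was at 145 CPM in WT and 127 CPM in EC-iCD45KO (−0.19, −0.40 to 0.02). Srf was rare, with 12 UMIs in WT and 35 in EC-iCD45KO, so that 6.18 and 7.32 CPM (0.24, −0.74 to 1.32) could not be separated at this depth. Pln, past 1.5-fold at 8.76 and 13.6 CPM, rested on 17 and 65 UMIs, and its interval included 0. Kcnmb1 gave 0.48 (0.18 to 0.78), and Kcnma1 0.30 (0.07 to 0.53). In a list of signalling and calcium genes 1 of 17 was higher, against the same 10.8%, Ednra, an endothelin receptor, at 5.67 and 11.7 CPM. None of the 10 non-muscle paralogs of the members, among them Actb and Myh9, was past 1.5-fold either way in SMC-like cells, and their median was −0.06. In the same cells 4 of 12 genes of the modulated state were higher, against 10.8% of all genes: Spp1, osteopontin, at 1695 and 3998 CPM, Lgals3, galectin-3, at 474 and 1172 CPM, Timp1 and Vcam1. The median of the 12 was −0.09, and 4 of 12 intervals lay below 0, against 19.6% of those of all genes, the lowest for Lum, at 699 and 500 CPM (−0.48, −0.58 to −0.38). Spp1 and Lgals3 are also macrophage genes, and the macrophage markers summed to more in EC-iCD45KO in the same cells.

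The count in SMC-like cells depended on which cells were taken. It was 19 of the 35 genes, against 6.38% of all genes, with a median of 0.68, in a set chosen by markers alone. That set took cells of any cluster, not only the SMC-like one, with at least 2 smooth muscle markers. The count was 20, against 5.83%, with a median of 0.64, when the Vcam1 and Itga8 cluster was added to the SMC-like cells. At the finer clustering, the largest group of SMC-like cells, led by Tafa1 and Thsd4, had 8 of 35 genes higher, against 15.8% of all genes, 0 lower, against 19.3%, and a median of 0.24. The SMC-like cells that joined the Itih4 and Sost cluster, 61 in WT and 383 in EC-iCD45KO, had 3 of 33 higher, against 22%, and 14 lower, against 26.5%, with a median of −0.48. The remaining groups of SMC-like cells had 8 of 34 higher, against 32.1%, and 3 lower, against 26.6% (Slurp1 and Vcam1), 8 of 34 higher, against 24.3%, and 1 lower, against 24.6% (Igfbp2 and Ccl21a), and 15 of 35 higher, against 23.6%, and 0 lower, against 27.1% (Rgs5 and Clec3b). The marker lists that scored best in these 3 finer clusters were not those of muscle in its contractile state. They were modulated muscle for Slurp1 and Vcam1, with 124 and 108 SMC-like cells, endothelium for Igfbp2 and Ccl21a, with 107 and 332, and fibroblasts for Rgs5 and Clec3b, with 122 and 244.

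In pericyte-like cells 6 of 35 genes were higher, against 19.8%, and 0 lower, against 21.2%, with a median of 0.17. Depth differed in this class, with a median of 1650 UMIs per cell in WT and 4641.5 in EC-iCD45KO. Tpm4 stood there at 146 CPM in WT and 441 CPM in EC-iCD45KO, on 65 and 301 UMIs (1.59, 1.20 to 2.00). The other higher genes were Smtn, at 94.5 and 176 CPM (0.90), Csrp1, at 603 and 989 CPM (0.71), Pdlim7, an actinin-binding LIM protein, at 115 and 180 CPM (0.65), Kcnma1, at 49.5 and 76.2 CPM (0.62, −0.12 to 1.41), and Csrp2, at 416 and 636 CPM (0.61). At the low end, none past 1.5-fold, were Ldb3, at 92.2 and 67.4 CPM (−0.45, −1.09 to 0.19), Myl9 (−0.36), Des, at 547 and 479 CPM (−0.19), Ppp1r12a, at 1332 and 1171 CPM (−0.19), and Actg2, at 69.7 and 63.0 CPM (−0.15). The genes that mark contractile muscle lay close between the libraries. Acta2 stood at 9665 and 10904 CPM (0.17, 0.12 to 0.23), Tagln at 7870 and 9247 CPM (0.23), Cnn1 at 0.17 on the log2 scale (−0.21 to 0.55) and Myh11 at 2279 and 2402 CPM (0.08, −0.04 to 0.19). Myocd, at 151 and 189 CPM, and Srf, on 5 and 7 UMIs, had intervals that included 0. The markers of this class itself differed, with the 5 pericyte markers at a summed 1939 CPM in WT and 4739 CPM in EC-iCD45KO, 5 of 5 above WT. Plasma cell markers summed to 2207 and 71.8 CPM, B cell markers to 695 and 39.6 CPM and cardiomyocyte markers to 171 and 13.2 CPM. The part of these markers' cells in the contractile values was not tested.

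The Vcam1 and Itga8 cluster gave the widest difference of the apparatus. Of the 35 genes, 34 passed the minimum, and 23 were higher in EC-iCD45KO, against 4.77% of the 10445 genes tested, and 0 were lower, against 7.53%. The median ratio was 0.83, against −0.07 for all genes tested, and 33 of the 34 intervals lay above 0, against 12.9% of those of all genes. The exception was Srf (0.08, −0.43 to 0.60), and Pln, at 2.17 and 3.95 CPM, was not tested. The 10 non-muscle paralogs gave a median of −0.07 in this cluster, and 0 of them were past 1.5-fold either way. Pericyte markers summed to 751 CPM in WT and 1666 CPM in EC-iCD45KO in this cluster, with 2 of 5 above WT, and macrophage markers to 565 and 1087 CPM, with 9 of 9 above WT and none at 0. The smooth muscle markers outside the set summed to 1511 and 1979 CPM, with 4 of 5 above WT, and the chondrocyte markers to 503 and 231 CPM, with 0 of 7. Their part in the contractile values was not tested.

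**Figure D2:**
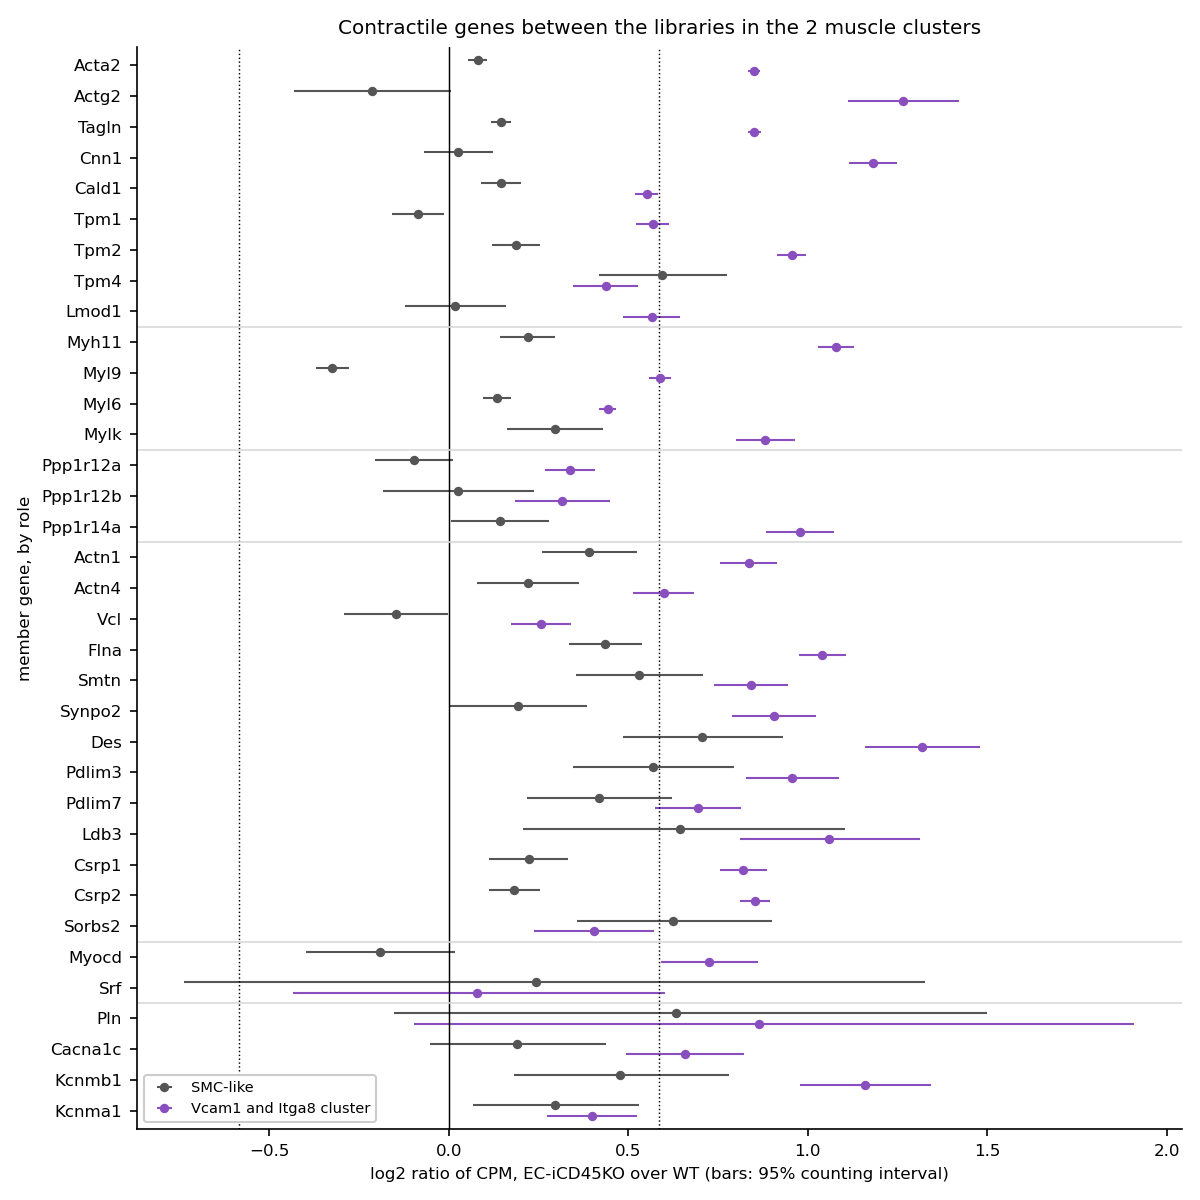
Log2 ratio of CPM, EC-iCD45KO over WT, for the 35 genes in SMC-like cells (grey) and in the Vcam1 and Itga8 cluster (purple), grouped by role from thin filament (top) to calcium and potassium handling (bottom); bars are 95% counting intervals and dotted lines mark 1.5-fold. The purple points lie to the right of the grey for 32 of the 35 genes, all but Tpm4, Sorbs2 and Srf, with Acta2 at 0.85 against 0.08.

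Of the thin filament genes 5 of 9 were higher, against 4.77% of all genes, with a median of 0.85. Of the thick filament and kinase genes 3 of 4 were, against the same share, with a median of 0.74. Acta2 was at 6897 CPM in WT and 12438 CPM in EC-iCD45KO (0.85, 0.83 to 0.87), Tagln at 5354 and 9659 CPM (0.85, 0.83 to 0.87), and Cnn1 at 398 and 903 CPM (1.18, 1.11 to 1.25). Myh11 stood at 721 and 1522 CPM (1.08, 1.03 to 1.13), Myl9 at 2063 and 3102 CPM (0.59, 0.56 to 0.62), and Mylk at 268 and 494 CPM. Relative to SMC-like cells of the same library, Acta2 in this cluster was at 83.5% in WT and at 142% in EC-iCD45KO, and Cnn1 at 61.5% and 137%.

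The largest ratio was that of Des, at 68.7 CPM in WT and 171 CPM in EC-iCD45KO (1.32, 1.16 to 1.48). Actg2 was at 73.4 and 176 CPM (1.27, 1.11 to 1.42), Kcnmb1 at 54.4 and 121 CPM (1.16), and Flna, filamin, which ties actin to the membrane, at 422 and 867 CPM (1.04). Myocd was at 107 and 176 CPM (0.73, 0.59 to 0.86). After Srf, at 9.01 and 9.51 CPM, the smallest were Vcl, at 306 and 366 CPM (0.26), Ppp1r12b, at 124 and 154 CPM (0.32), Ppp1r12a, at 426 and 539 CPM (0.34), Kcnma1, at 131 and 173 CPM (0.40), and Sorbs2, at 75.1 and 99.3 CPM (0.40). Of the adhesion and cytoskeleton list 3 of 14 were higher, against 4.77% of all genes, Dstn, an actin-severing protein, at 972 and 1506 CPM, Fhl2, a LIM protein, and Sgca, and of the signalling list 0 of 17. Of the genes of the modulated state, 0 of 12 were higher over the whole cluster and 2 lower, against 7.53% of all genes: Ly6a, at 1648 and 896 CPM, and Sox9, at 44.1 and 23.3 CPM. In all, 11 of 12 intervals lay below 0, against 22.1% of those of all genes. The 8 fibroblast markers summed to 11507 CPM in WT and 8311 CPM in EC-iCD45KO.

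The cluster was mixed. Clustering at a finer resolution put 210 of its WT cells (29.8%) and 466 of its EC-iCD45KO cells (51.4%) into a cluster of Itih4 and Sost, and 450 (63.8%) and 319 (35.2%) into a cluster of Slurp1 and Vcam1. The remaining cells, a larger share in EC-iCD45KO than in WT, lay in other finer clusters and are not in the finer-cluster values below. In WT Acta2 stood at 17250 CPM in the first and 2176 CPM in the second, Myh11 at 1994 and 153 CPM, and Cnn1 at 1188 and 50.5 CPM. The modulated genes had the opposite order, with Lum, a matrix proteoglycan, at 2065 and 5839 CPM and Spp1, osteopontin, at 2256 and 15238 CPM. Unlike the contractile genes, they were not held out of the clustering. Vcam1, Lum and Timp1 were among the leading genes of the Slurp1 and Vcam1 cluster, so this order is not independent of the division. The finer cluster that held more of the cells was that of Slurp1 and Vcam1 in WT and that of Itih4 and Sost in EC-iCD45KO.

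Within each finer cluster the members lay much closer. In the Itih4 and Sost cluster 2 of 35 genes were higher, Des (1.01) and Actg2 (0.76), against 5.3% of all genes, 1 was lower, Srf (−0.62), against 8.77%, and the median was 0.24. In the Slurp1 and Vcam1 cluster 4 of 34 were higher, Tpm4 (0.70), Cnn1 (0.64), Kcnmb1 (0.63) and Cacna1c (0.59), against 4.32%, 0 were lower, against 10.2%, and the median was 0.07. Acta2 gave 0.15 and 0.08, against 0.85 over the whole cluster. Myh11 gave 0.28 and −0.08, against 1.08. Myl9 gave −0.18 and −0.51, neither past 1.5-fold, against 0.59 over the whole. The modulated genes also differed from their pooled values. Spp1 was above 0 in both, at 0.87 in the Itih4 and Sost and 0.45 in the Slurp1 and Vcam1 cluster, against −0.06 over the whole, as were Timp1 (0.40 and 1.03), Fn1, fibronectin (0.48 and 0.17), and Lgals3 (0.34 and 0.14). Lum gave −1.02 and 0.33, and Dcn, another matrix proteoglycan, −1.17 and 0.39. Ly6a gave −2.09 and −0.01, and Sox9 −0.77 and −0.43. The finer division was made without the contractile genes, but not without the modulated ones, and was chosen after the pooled values were seen.

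**Figure D3:**
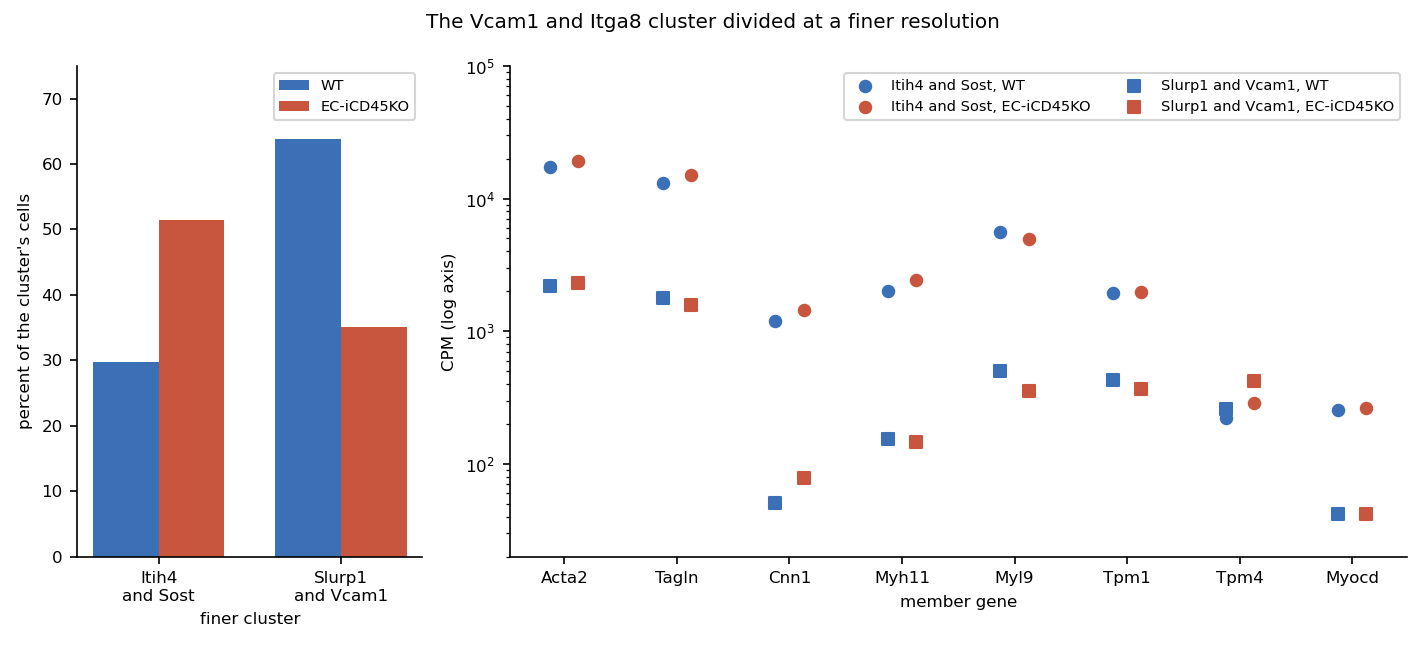
Left, percent of the cells of the Vcam1 and Itga8 cluster that fall in each of 2 finer clusters, in WT (blue) and EC-iCD45KO (red). Right, CPM on a log axis of 8 contractile genes in the Itih4 and Sost cluster (circles) and in the Slurp1 and Vcam1 cluster (squares). Circles lie far above squares for all genes shown except Tpm4, and the blue and red marks of 1 shape lie close, while the bars change order between the libraries.

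Single cells were spread more widely in this cluster than in the SMC-like one. The 9 core genes (Acta2, Tagln, Cnn1, Myh11, Myl9, Mylk, Tpm2, Lmod1 and Smtn) took a median of 0.611% of a cell's UMIs in the WT cells of the Vcam1 and Itga8 cluster, with quartiles at 0.155% and 2.78%. In EC-iCD45KO the median was 1.66%, with quartiles at 0.293% and 4.72%. SMC-like cells had medians of 1.55% and 1.84% and quartiles from 0.907% to 2.48% and from 1.13% to 2.78%.

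Endothelial cells carried some members at muscle level and others at a few percent of it. In EC-like cells Tpm4 stood at 193 CPM in WT and 394 CPM in EC-iCD45KO, or 113% and 153% of its SMC-like level. Sorbs2 was at 164 and 162 CPM (223% and 143%), Srf at 6.51 and 7.57 CPM (105% and 103%), and Actn4, the non-muscle actinin, at 255 and 279 CPM, the latter 85.8%. The defining muscle genes were far lower, with Acta2 at 365 and 405 CPM (4.43% and 4.64%), Myh11 at 36.7 and 59.5 CPM (3.80% and 5.29%) and Cnn1 at 14.7 and 16.2 CPM (2.27% and 2.45%). The 5 smooth muscle markers outside the set summed to 11.2% and 9.46% of their SMC-like level, above these 3 genes. The median over the 35 genes was 14.1% in WT and 12.2% in EC-iCD45KO.

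Between the libraries, 31 of the 35 genes passed the minimum in EC-like cells and 6 were higher in EC-iCD45KO, against 4.69% of the 10969 genes tested, while 0 were lower, against 7.11%. Actg2, Ldb3, Pln and Kcnmb1 lay under the minimum. The median ratio was 0.22, against −0.01 for all genes. The 6 were Tpm4 (1.03, 0.94 to 1.12), Smtn, smoothelin, a marker of contractile muscle, at 26.2 and 48.8 CPM (0.90), Synpo2, a Z-disc actin binder, at 7.56 and 14.0 CPM (0.88), Cacna1c at 7.56 and 13.7 CPM (0.85), Csrp1, a LIM protein of muscle and other cells, at 124 and 215 CPM (0.79), and Myh11 (0.70, 0.49 to 0.91). Myl9 had the lowest ratio (−0.30). The dense body and attachment genes and the calcium and potassium handling genes each reached down to −0.21. With genes that averaged under 20 CPM left aside, Ppp1r12a, at 285 and 247 CPM (−0.21), came next. It was followed by Tagln, at 342 and 301 CPM (−0.18, −0.26 to −0.11), Csrp2, at 205 and 193 CPM (−0.08), and Sorbs2 (−0.02). None of these was past 1.5-fold. Tpm2, at 49.4 and 73.1 CPM (0.57), lay just inside it. Cnn1 gave 0.14 (−0.21 to 0.50), and Myocd, at 4.95 and 6.98 CPM (0.49, −0.09 to 1.10), and Srf (0.22) had intervals that included 0. Acta2, at 0.15 (0.08 to 0.22), was not past 1.5-fold. With each cell weighted equally, as the mean of single-cell CPM, 11 of 31 genes were higher in place of 6, against 6.74% of all genes. Of the signalling list 1 of 16 was higher, against 4.69% of all genes, Notch3 at 7.04 and 11.6 CPM, and 1 lower, against 7.11%, Gucy1a1 at 15.0 and 9.34 CPM. Of the adhesion list 1 of 13 was higher, Fhl2 at 2.48 and 8.45 CPM, and 0 lower. Of the modulated list 3 of 11 were lower, Lum, Tnfrsf11b and Vcam1, and 0 higher. Macrophage markers summed to 3554 CPM in WT and 5664 CPM in EC-iCD45KO in these cells, with 9 of 9 above WT. The pericyte markers summed to 80.5 and 79.2 CPM and the smooth muscle markers to 134 CPM in both.

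The EC-like class held 3 clusters in different proportions. The cluster of Ackr1 and Selp, genes of venous endothelium, held 55.4% of the EC-like cells in WT and 72.1% in EC-iCD45KO. That of Sfrp1 and Tmem158, with the arterial genes Gja5 and Bmx among its leading genes, held 28.2% and 12.5%, and that of Gpihbp1 and Ccdc85a, with the capillary gene Car4, 16.4% and 15.4%. Acta2 was highest in the Sfrp1 and Tmem158 cluster, at 745 CPM in WT and 835 CPM in EC-iCD45KO (0.17, 0.06 to 0.27). It stood at 268 and 420 CPM in the Ackr1 and Selp cluster (0.65, 0.54 to 0.75) and at 54.9 and 94.0 CPM in the Gpihbp1 and Ccdc85a cluster (0.78, 0.42 to 1.14). The pooled ratio of 0.15 was below that of each of the 3 clusters, and the cluster with the most Acta2 made up a smaller share of EC-iCD45KO cells.

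Cluster by cluster, the higher genes differed. In the Ackr1 and Selp cluster 11 of 31 were higher, against 6.97% of all genes, and 0 lower, against 10%, with Cnn1 at 9.91 and 23.2 CPM (1.23, 0.70 to 1.79) and Tpm2 at 45.8 and 96.3 CPM (1.07, 0.82 to 1.33). In the Sfrp1 and Tmem158 cluster 3 of 30 were higher, against 8.71%, namely Tpm4, Csrp1 and Des, and 4 lower, against 12.3%. Among the latter Cnn1 was at 30.8 and 8.43 CPM (−1.87, −2.81 to −1.03), on 71 and 14 UMIs, and Myl9 at 123 and 66.8 CPM (−0.88, −1.21 to −0.56). Cald1, caldesmon, which blocks myosin from actin until calcium rises, was at 804 and 1178 CPM in that cluster (0.55, 0.46 to 0.64), 45.1% and 59.7% of its SMC-like level. In the Gpihbp1 and Ccdc85a cluster 5 of 23 were higher, against 6.79%, and 0 lower, against 9.46%. Macrophage markers summed to 5344 and 8374 CPM in the Ackr1 and Selp cluster, 2695 and 3685 CPM in that of Sfrp1 and Tmem158, and 688 and 689 CPM in that of Gpihbp1 and Ccdc85a. In the Ackr1 and Selp cluster this was more than the 12 endothelial markers, at 4052 and 4318 CPM. Other markers differed more there, those of lymphatic endothelium at 751 and 44.4 CPM and those of B cells at 898 and 84.9 CPM. In the Gpihbp1 and Ccdc85a cluster neutrophil markers stood at 29.3 and 300.5 CPM, with 6 of 6 above WT, lymphatic markers at 61.6 and 211 CPM and B cell markers at 347 and 26.4 CPM. In the Sfrp1 and Tmem158 cluster B cell markers were at 652 and 43.3 CPM and neutrophil markers at 53.9 and 119 CPM. Larger sums there were those of chondrocyte markers, at 2180 and 2149 CPM, modulated muscle markers, at 1947 and 1259 CPM, and fibroblast markers, at 1202 and 1359 CPM. The part of these cells in the contractile values was not tested. Cnn1 thus lay on opposite sides of 0 in the Ackr1 and Selp and the Sfrp1 and Tmem158 clusters, and that difference was not tested.

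**Figure D4:**
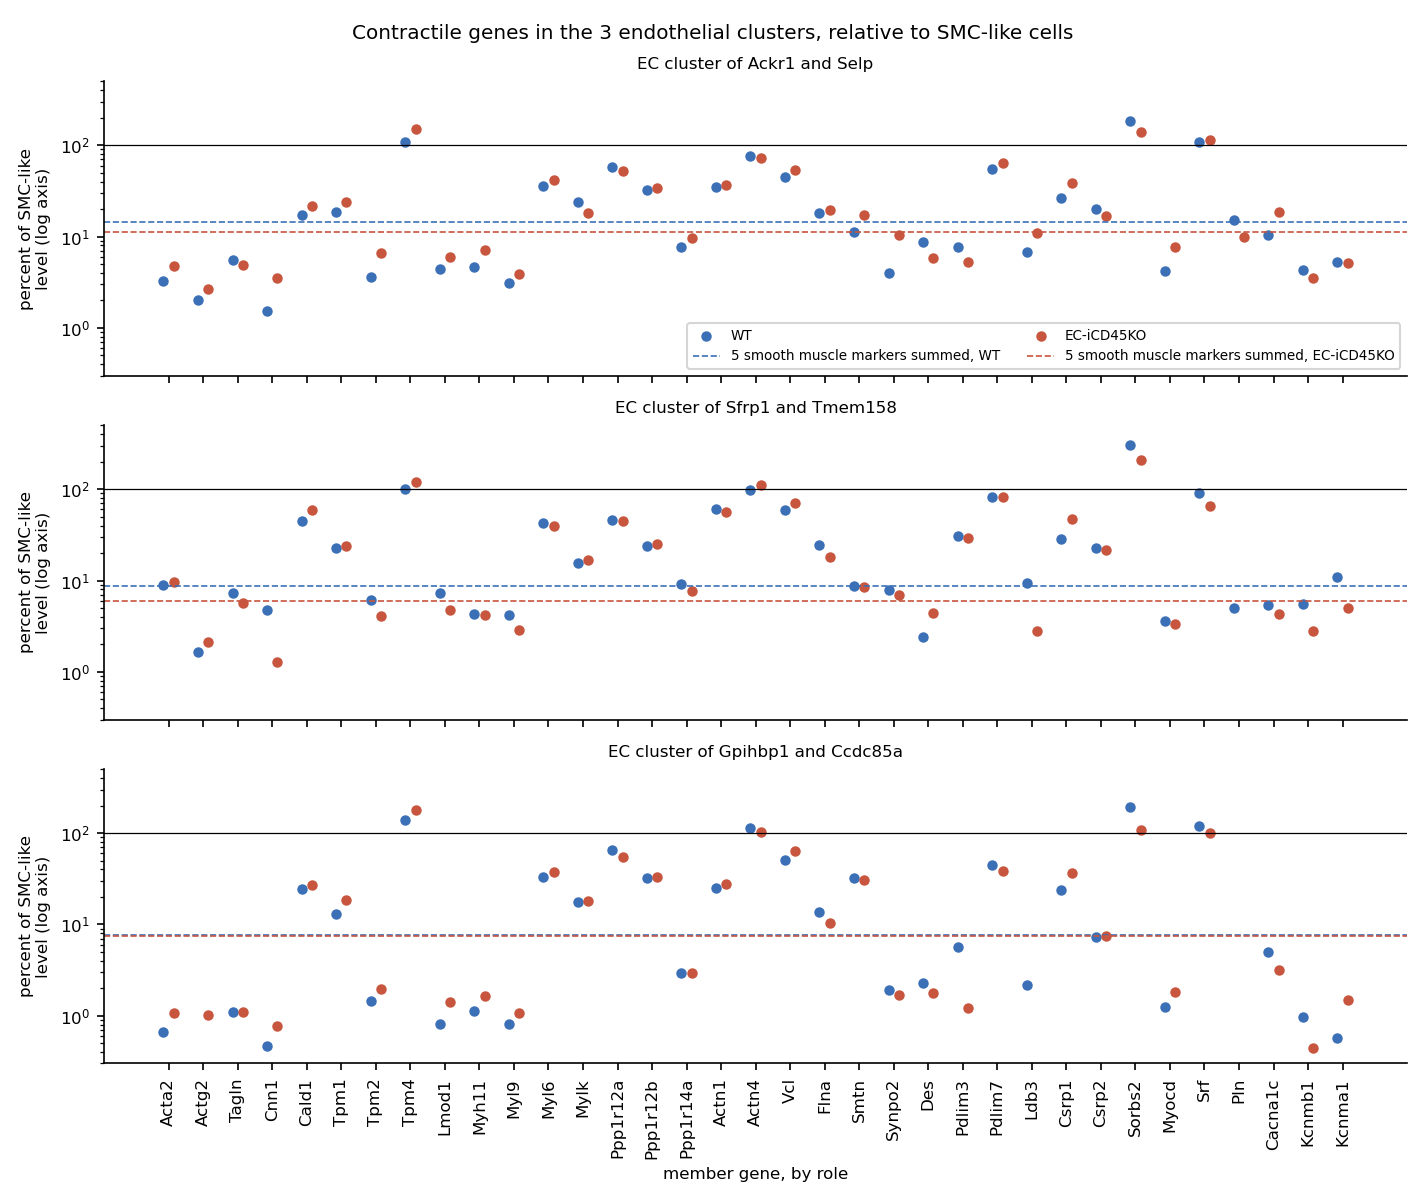
Level of each of the 35 genes in the 3 endothelial clusters as a percent of its SMC-like level in the same library, on a log axis, in WT (blue) and EC-iCD45KO (red); dashed lines give the same percent for the 5 smooth muscle markers summed, and genes at 0 UMIs are not drawn. Tpm4 and Sorbs2 lie above 100% in all 3 clusters, whereas Acta2 lies between 0.665% and 9.56%.

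As droplets can take up free RNA, shares of cells with a contractile UMI were set beside those of leukocytes, which should lack these genes. After thinning each cell to 1000 UMIs, an Acta2 UMI was found in 17.4% (15.9 to 18.9) of 2445 EC-like cells in WT and in 22.9% (21.3 to 24.5) of 2630 in EC-iCD45KO. Neutrophil-like cells gave 18.3% (13.8 to 23.5) and 21.5% (18.7 to 24.6), and these intervals overlapped those of the pooled EC-like cells. T/NK-like cells gave 5.24% (4.52 to 6.03) and 11.5% (8.61 to 15.1), and B-like cells 5.21% and 8.39%. Before thinning, EC-like cells had a median of 1512 and 1288 UMIs, against 1131.5 and 1373 for neutrophil-like cells and 2034.5 and 2771.5 for T/NK-like cells. Without thinning, the EC-like difference between the libraries was 11.2 percentage points, and at 1000 UMIs it was 5.51.

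For Acta2, the Sfrp1 and Tmem158 cluster lay above the neutrophil-like interval in EC-iCD45KO, at 32.5% (27.9 to 37.3), while in WT, at 24.9% (21.8 to 28.1), the intervals overlapped. They overlapped in WT at 2000 UMIs as well, at 32.2% (27.2 to 37.4) against 25.6% (16.9 to 35.8). Without thinning the cluster was above in WT too, at 33.2% (30.1 to 36.3) against 22.1% (18.3 to 26.4). Depth was then unequal, with medians of 1594 and 1131.5 UMIs. The Ackr1 and Selp cluster gave 18.2% and 24.8%, and the Gpihbp1 and Ccdc85a cluster 4.40% and 11.1%, near the T/NK-like shares.

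Tagln gave another order. A Tagln UMI was found in 17.8% (16.3 to 19.4) of EC-like cells in WT and 21.2% (19.7 to 22.8) in EC-iCD45KO, against 9.13% (5.93 to 13.3) and 18.5% (15.8 to 21.5) of neutrophil-like cells. The pooled endothelial share of Tagln was thus above the neutrophil-like share beyond counting error in WT, while the intervals overlapped in EC-iCD45KO. The Ackr1 and Selp cluster lay above it in both libraries, at 21.2% (18.9 to 23.6) and 27.0% (24.8 to 29.2), and the Sfrp1 and Tmem158 cluster in WT, at 22.3% (19.3 to 25.5), while in EC-iCD45KO, at 19.4% (15.6 to 23.6), the intervals overlapped. The last call depended on depth. Thinned to 2000 UMIs, that EC-iCD45KO cluster stood at 35.02% (29.0 to 41.5), against 21.4% (16.3 to 27.2) of neutrophil-like cells, and without thinning at 35.6% (31.5 to 39.9), against 22.9% (20.4 to 25.6). The pooled EC-like share in EC-iCD45KO overlapped the neutrophil-like interval at 2000 UMIs, at 26.9% (24.5 to 29.4), and lay above it without thinning, at 31.9% (30.5 to 33.3). The Gpihbp1 and Ccdc85a cluster was at 5.24% and 9.05%. In T/NK-like cells the share of Tagln was 4.38% and 8.60%. The part of free RNA in the endothelial shares of either gene was not tested. In summed UMIs, Acta2 stood to Myh11 at 8.54 in WT and 7.76 in EC-iCD45KO in SMC-like cells, and at 7.17 and 6.11 in neutrophil-like cells, but at 17.9 and 17.6 in the Sfrp1 and Tmem158 cluster. The other endothelial clusters gave 5.96 and 5.20 (Ackr1 and Selp) and 5.00 and 5.04 (Gpihbp1 and Ccdc85a). The next highest in WT were 15 in chondrocyte-like, 11.3 in plasma-like and 10.3 in lymphatic EC-like cells, with 6.81, 2.45 and 4.52 in EC-iCD45KO.

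**Figure D5:**
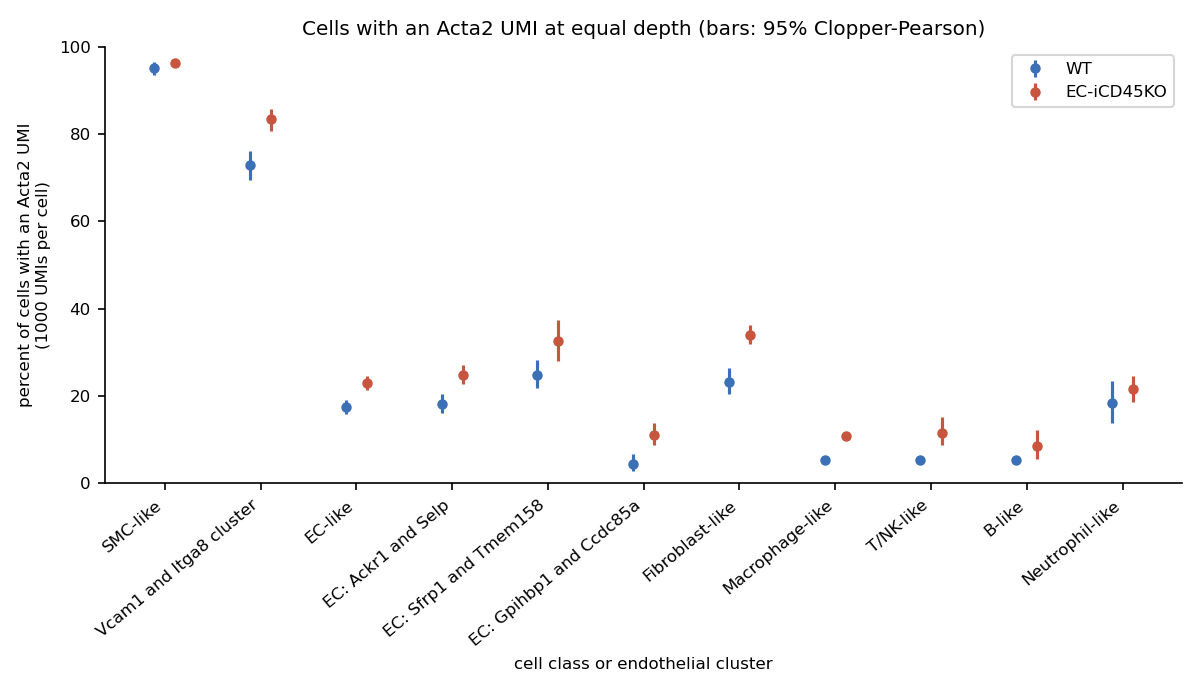
Percent of cells with at least 1 Acta2 UMI after thinning to 1000 UMIs per cell, in WT (blue) and EC-iCD45KO (red), by class and endothelial cluster; bars are 95% Clopper-Pearson intervals. SMC-like cells lie at 95.2% and 96.3%, and the intervals of the pooled EC-like cells overlap those of the neutrophil-like cells.

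Contractile genes were also higher in EC-iCD45KO in classes outside the muscle. In fibroblast-like cells 15 of 31 genes were higher, against 8.35% of the 11075 genes tested, and 0 lower, against 10%, with Acta2 at 313 CPM in WT and 714 CPM in EC-iCD45KO (1.19, 1.09 to 1.30), Cnn1 at 12.7 and 45.8 CPM (1.85, 1.34 to 2.40) and Myocd at 3.98 and 13.5 CPM (1.76, 0.85 to 2.81). Tagln was at 216 and 526 CPM (1.28), Sorbs2 at 12.7 and 29.6 CPM (1.22) and Myh11 at 46.3 and 106 CPM (1.20). Srf, on 8 and 42 UMIs, lay under the minimum. At the low end, none past 1.5-fold, were Des at 41.3 and 35.3 CPM (−0.23), Ppp1r12b at 63.7 and 55.9 CPM (−0.19), Cald1 at 768 and 747 CPM (−0.04), Ppp1r12a at 178 and 182 CPM (0.03) and Myl6, the essential light chain, at 1356 and 1479 CPM (0.12). This count was 4 of 33 at the finer clustering, against 6.37%, where Tagln gave −0.18 against 1.28, and 6 of 30 without doublet removal, against 6.88%. The smooth muscle markers outside the set summed to 94.1 and 191 CPM in the same cells, with 5 of 5 above WT and none at 0, and the macrophage markers to 2073 and 5370 CPM. In macrophage-like cells 8 of 20 genes were higher, against 2.35%, and 0 lower, against 4.43%, with Acta2 at 43.6 and 87.2 CPM (interval of the log2 ratio 0.87 to 1.13) and Myh11 at 6.72 and 19.2 CPM (1.52, 1.19 to 1.86). Tagln was at 28.7 and 63.2 CPM (1.14), Cald1 at 15.99 and 27.9 CPM (0.80) and Csrp1 at 52.5 and 87.2 CPM (0.73), while Csrp2, at 21.3 and 31.6 CPM (0.57), lay just inside 1.5-fold. The lowest were Myl6, at 1575 and 1355 CPM (−0.22), Ppp1r12a (−0.03), Pdlim7 (−0.03), Ppp1r12b (−0.02) and Tpm1 (−0.02). Cnn1, on 38 and 202 UMIs, and Myocd, on 9 and 32, lay under the minimum, and Srf gave 0.29 (−0.12 to 0.71). As the mean of single-cell CPM, 13 of 24 were higher, against 3.8%.

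T/NK-like cells had 10 of 21 genes higher, against 14.1%, and 1 lower, against 6.45%, and B-like cells 11 of 24 higher, against 10.4%, and 1 lower, against 6.49%. In these lymphocytes Acta2 was at 55.4 and 118 CPM in T/NK-like cells (1.09, 0.81 to 1.35) and at 47.6 and 108 CPM in B-like cells (1.18, 0.85 to 1.49). Dendritic cell-like cells had 12 of 22 higher, against 9.01%, and 1 lower, against 14.6%, and neutrophil-like cells 14 of 28, against 14.9%, and 1, against 22.1%. The balance was the reverse in plasma-like cells, with 3 of 30 higher, against 18.7%, and 15 lower, against 37.1%, and in erythroid-like cells, with 3 of 33 higher, against 25.7%, and 17 lower, against 26.3%. Cell numbers lay far apart in some of these classes. WT and EC-iCD45KO held 1762 and 75 plasma-like, 3870 and 444 T/NK-like, 5770 and 334 B-like and 746 and 111 chondrocyte-like cells. Chondrocyte-like cells had 4 of 31 each way, against 12.9% and 19.5%, and Schwann-like cells 3 and 7 of 33, against 25.1% and 23.3%. Lymphatic EC-like cells had 10 and 2 of 29, against 20% and 21.9%, and the unnamed cluster of Dmp1 and Mmp13 5 and 0 of 33, against 10.4% and 17.3%. The interval of Acta2 lay below 0 in 4 classes, which were plasma-like (532 and 240 CPM), erythroid-like (1215 and 309 CPM), chondrocyte-like (598 and 296 CPM) and lymphatic EC-like cells (259 and 179 CPM). The level of free muscle RNA in each library was not measured, and its part in these values was not tested.

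Across the 15 classes, Tpm4 had an interval above 0 in 12 of the 15 classes and below 0 in 0, with 128 and 244 CPM in fibroblast-like (0.93), 146 and 441 CPM in pericyte-like (1.59) and 148 and 191 CPM in macrophage-like cells (0.37). Csrp1 had an interval above 0 in 9 of 15 classes and below 0 in 0. Acta2, by contrast, had 11 above and 4 below, and Myl9 7 above and 5 below. The level of Tpm4 also followed the core genes least after Srf, with a Pearson correlation of log2(CPM + 1) of 0.35 over 30 pairs of class and library, against 0.21 for Srf and 0.99 for Tagln, which is itself 1 of the core genes. These pairs share 2 libraries and their free RNA, so the values are descriptive.

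The genes outside the set whose profile was most like the core over the same 30 pairs were Nexn, an actin-binding protein of muscle (r = 0.98), Rgs5, a regulator of G protein signalling in pericytes and muscle (0.96), Gm13889 (0.96), Dmpk, a muscle kinase (0.96), and Myom1, a sarcomere protein (0.95). Rgs5 was among the pericyte markers used to name classes.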

How the data were processed

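The deposited files hold UMI counts per gene and cell barcode, made by the authors with Cell Ranger 7.1.0 on mm10, per the submitters' processing notes. No further detail of the counting, including its strand setting, was given in the sources used here. In GENCODE M21, 15 of the 35 genes overlap another gene, 2 of them (Actn1 and Actn4) on the same strand. How reads that match both Acta2 and its paralog Actg2 were counted was not examined. The 35 genes and all lists were chosen with earlier results of these data known.

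Barcodes with under 300 genes or over 10% mitochondrial UMIs were dropped. Scrublet's own threshold marked 2 cells in WT and 0 in EC-iCD45KO and was not usable, so the 10% of cells with the highest doublet scores were removed from each library. Cells were clustered together with scanpy 1.11.5 and leidenalg 0.10.2 in Python 3.11.15, without the 35 genes, from 2000 variable genes, 30 principal components and 20 neighbours at a Leiden resolution of 1. A cluster took a name from its marker list at a score of at least 1, a lead of at least 0.65 over the next list, at least 3 detected markers and at least 50 cells. It stayed unnamed where more markers of another list than of its own were among its 10 leading genes outside the 35, or where its cells were shallow with none of its own there. The name of modulated muscle was taken from 1 cluster because Acta2, Cnn1, Tagln and Myl9 were among its leading genes. The 4 limits, and this refusal, were chosen with the clusters in view. The finer clustering used a resolution of 2.

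Counts were summed per class and library and given as CPM of all UMIs of the class. Log2 ratios have exact conditional binomial intervals, and shares of cells, after thinning each cell to 1000 UMIs, have Clopper-Pearson intervals. With 1 library per group, no test was made. In the Vcam1 and Itga8 cluster and the classes named for muscle, pericytes, endothelium, fibroblasts and macrophages, values are given for Acta2, Tagln, Cnn1, Myh11, Myocd and Srf, and for the 5 genes with the highest and the 5 with the lowest ratio among those with a mean of at least 20 CPM. The other classes are given by counts and single genes, short of the planned rule. Genes named beyond this rule were chosen after their values were seen. The ratio and interval code was tested on simulated data. Alternatives were the cell filter, doublet removal, scaling (edgeR 4.0.16 in R 4.3.3 for TMM factors), the minimum level, the clustering, the summary over cells, the fold, the choice of cells and the thinning depth.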

Additional observations from a re-analysis of the deposited data

How the results depend on the processing

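No paired analysis was possible because there was only 1 library for WT and 1 for EC-iCD45KO. Of the values that answer a comparison, 72 stayed within their range under the alternatives and 32 moved, and of the single-gene values 259 stayed, 116 moved and 5 changed sign. Counts here are of genes past the fold in either direction. Except where the Results give one, no share of all genes was computed under the alternatives, so these counts cannot be set against it. In SMC-like cells the count of 5 was 3 without mitochondrial, ribosomal protein and haemoglobin genes in the total, 3 without doublet removal, 3 at a Leiden resolution of 2 (2 higher, 1 lower) and 0 at 2-fold. It was 19 in cells of any cluster with at least 2 smooth muscle markers, and 20 with the Vcam1 and Itga8 cluster added to the SMC-like cells. The median of 0.19 was 0.43 with a stricter cell filter, 0.68 in cells of any cluster with at least 2 markers and 0.64 with the Vcam1 and Itga8 cluster added. In the Vcam1 and Itga8 cluster the count of 23 was 7 at 2-fold, 3 in its Itih4 and Sost cells, 2 higher and 1 lower, and 4 in its Slurp1 and Vcam1 cells. Its median of 0.83 was 0.92 with TMM factors, 0.60 as the mean of single-cell CPM, and 0.24 and 0.067 in the 2 finer clusters. Myl9 changed sign in both finer clusters (−0.18 and −0.51), and Tagln (−0.17) and Myh11 (−0.076) in the Slurp1 and Vcam1 cells. In EC-like cells the count of 6 was 1 at 2-fold and 11 as the mean of single-cell CPM, and the difference in the share with an Acta2 UMI was 11.2 points without thinning. In fibroblast-like cells the count of 15 was 7 at 2-fold, 8 with a stricter filter, 7 higher and 1 lower, 6 without doublet removal and 4 at a resolution of 2, the median of 0.56 was 0.25, 0.32 and 0.27 under the last 3, and Tagln was −0.18 at a resolution of 2. In macrophage-like cells the count of 8 was 16 with no minimum, 4 at 2-fold and 13 as the mean of single-cell CPM, and the median of 0.35 was 0.53 with no minimum, 0.78 as the mean of single-cell CPM and 0.71 without doublet removal. The cause of these shifts was not tested. All alternatives for the Vcam1 and Itga8 cluster, and its addition to SMC-like cells, were chosen after seeing the data, and at a resolution of 2 that cluster had no counterpart as a whole. With 1 library per group, intervals cover counting error only, and depth limits the genes with few UMIs, such as Srf and Pln.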
